A study of Gallus gallus with 12 samples.

Results

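Interferon signalling and interferon-stimulated genes were followed through a list of 40 gene symbols, and 37 of them were found among the 16161 genes of the deposited count table. They were 10 receptor, Janus kinase and STAT genes, 9 genes of nucleic acid sensors with their cofactors, adaptors and kinases, 12 antiviral effector genes and 6 regulator genes. The symbols USP18, STAT5B and STING1 were not listed in the table.

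Interferons are secreted antiviral cytokines. Type I interferons bind the receptor chains IFNAR1 and IFNAR2, and interferon gamma binds IFNGR1 and IFNGR2. The receptors carry Janus kinases, which phosphorylate STAT proteins, and the STATs switch on interferon-stimulated genes. Many of these genes encode proteins that block viral replication, and others encode the sensors of foreign nucleic acid that start interferon production. In macrophages of mammals, LPS acting through TLR4 can induce interferon and with it interferon-stimulated genes.

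RNA was sequenced from HD11 cells, a chicken macrophage-like line transformed by a retrovirus that carries an oncogene. LPS cells received 100 ng/mL LPS for 6 h, SeMC+PBS cells were kept with 100 µM Se-methylselenocysteine (SeMC, a selenium-containing amino acid) for 12 h before the time of challenge and received PBS, and Control cells received PBS. Each group had 3 libraries of the same cell line, and the labels do not state whether they came from separate cultures, so p-values measure the spread between these libraries. Deposited SeMC+LPS libraries were left out because all 37 genes had SeMC+LPS counts equal to the rounded-down mean of their LPS and SeMC+PBS counts.

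The total count per library was 13451069 to 14018893 in LPS, 10656332 to 11531551 in SeMC+PBS and 14972385 to 17024392 in Control. Levels are given as CPM, gene counts scaled to a common library size that was adjusted by TMM, which sets the bulk of genes equal between libraries, and a level of one gene is not compared with that of another because transcript length was not accounted for. Fold changes came from edgeR's quasi-likelihood test on the 6 libraries of a comparison, with p-values adjusted over all genes tested. Called means that the FDR was under 0.05 and the level differed by more than 1.5-fold, and genes that met only the FDR are given separately. In RNA from a whole culture, fewer cells of a kind and less RNA per cell cannot be told apart. Of 10 macrophage markers 9 were in the table, and their summed level was 2489 to 2513 CPM of the unadjusted total in LPS, 3299 to 3690 in SeMC+PBS and 3852 to 4017 in Control. CSF1R, the receptor that maintains macrophages, had 645 to 755 counts in LPS and 5495 to 5831 in Control. SPI1, a transcription factor of myeloid cells, had 8488 to 9301 counts in LPS and 6066 to 7232 in Control. Of the T cell markers, CD3E had 0 to 10 and CD3D 5 to 12 counts over all groups, but CD28 had 559 to 995. The B cell factor PAX5 had 0 to 4 counts. Of 5 fibroblast markers only COL1A1 was in the table, at 10.2 to 13.1 CPM of the unadjusted total in LPS, 13.7 to 18.7 in SeMC+PBS and 7.39 to 10.8 in Control. Of 5 thrombocyte and erythroid markers 2 were in the table, ITGA2B and HBBA. They summed to 1.24 to 2.45 CPM of the unadjusted total in LPS, 3.75 to 6.31 in SeMC+PBS and 1.603 to 2.53 in Control, so SeMC+PBS did not overlap the other groups. The part of these shifts in the values below was not tested.

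In LPS/Control, 7 of the 11 antiviral effector genes tested were called lower and none higher, while IFNGR2, IKBKE and NMI were called higher. Of the 37 genes, 36 passed the filter on low counts, and 13 were called, 3 higher and 10 lower in LPS. Among all 13008 genes tested, 12.0% were called, 6.13% higher and 5.92% lower. At an FDR under 0.05 alone there were 21 of the 36 genes, 5 higher and 16 lower. The share of all genes was 34.5%, with 18.0% higher and 16.5% lower. The median log2 fold change was -0.19 over the 36 genes and -0.81 over the 11 effectors tested, against -0.0015 over all genes tested. The LPS and Control libraries did not overlap in 25 of the 36 genes, against 46.5% of all genes.

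In SeMC+PBS/Control 4 of the 36 genes were called, MX1, IFIT5, RSAD2 and SAMD9L, all of them effectors with lower levels in SeMC+PBS. Here 14.1% of the 13146 genes tested were called, 8.50% higher and 5.58% lower. The count of genes called higher was 0 with edgeR, DESeq2 and limma-voom and 1 with limma on quantile-normalized counts. At an unadjusted p under 0.05, edgeR had 5 higher genes. An FDR under 0.05 alone was reached by 17 of the 36 genes, 5 higher and 12 lower, against 39.3% of all genes, 20.3% higher and 19.1% lower. The median log2 fold change was -0.07 over the 36 genes and -0.34 over the 11 effectors, against 0.0010 over all genes tested. The SeMC+PBS and Control libraries did not overlap in 21 of the 36 genes, against 51.0% of all genes. Over all genes, 1117 were called higher and 733 lower by edgeR, whereas limma on quantile-normalized counts called 801 higher and 1149 lower.

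**Figure D1:**
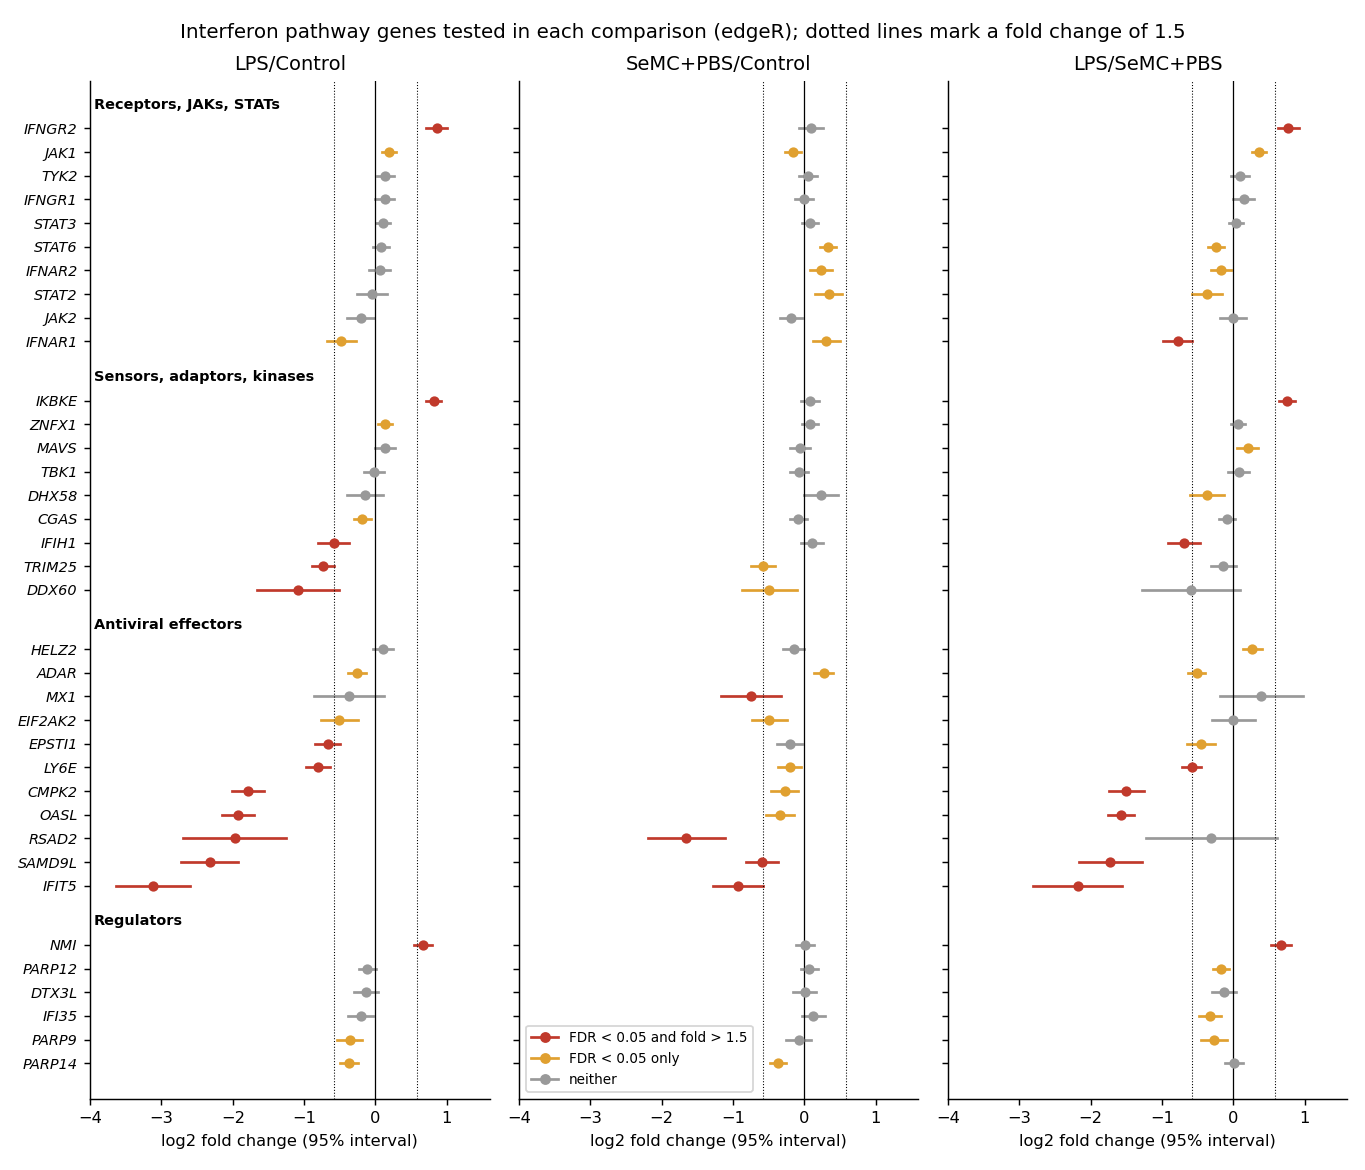
Log2 fold change with its 95% interval (x axis) of each of the 36 genes tested (rows, by role) in LPS/Control, SeMC+PBS/Control and LPS/SeMC+PBS, from edgeR fits of 6 libraries each. Effectors lie furthest to the left in LPS/Control, down to -3.12 for IFIT5, and the lowest value in SeMC+PBS/Control is that of RSAD2, at -1.66.

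The effectors called lower in LPS/Control were IFIT5, SAMD9L, OASL, RSAD2, CMPK2, LY6E and EPSTI1. None was called higher by edgeR, DESeq2, limma-voom or limma on quantile-normalized counts, and the count with an unadjusted p under 0.05 and a higher level was also 0 with each. IFIT5 (chromosome 6, 20119110 to 20122822 of GRCg7b), the chicken IFIT protein that binds foreign RNA, had 1.24, 1.25 and 0.903 CPM in LPS, 5.69, 5.71 and 4.33 in SeMC+PBS and 9.63, 11.02 and 9.38 in Control. The LPS levels rest on 16, 17 and 12 counts. No library of one group overlapped another group. This gave a log2 fold change of -3.12 (standard error 0.2405, edgeR adjusted p = 2.4e-08) in LPS/Control, which is 8.699-fold lower. It was -0.93 (standard error 0.167, edgeR adjusted p = 5.4e-04) in SeMC+PBS/Control. The level was lower in LPS than in SeMC+PBS, where LPS/SeMC+PBS gave -2.18 (standard error 0.289, edgeR adjusted p = 2.6e-05).

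SAMD9L (chromosome 2, 22813552 to 22821994) encodes a protein that restricts poxviruses and slows translation in mammals. Its levels were 5.72, 3.03 and 3.39 CPM in LPS, 13.8, 12.8 and 14.1 in SeMC+PBS and 20.3, 21.4 and 19.6 in Control, again as 3 separate bands. LPS/Control was at -2.33 (standard error 0.188, edgeR adjusted p = 9.4e-08) on the log2 scale. In SeMC+PBS/Control it was -0.59 (standard error 0.105, edgeR adjusted p = 5.3e-04), a 1.505-fold difference at the edge of the fold-change minimum. This second call was lost without SeMC+PBS replicate 2 (-0.55) and without Control replicate 2 (-0.56).

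OASL (chromosome 12, 3411598 to 3413627) is the 2'-5'-oligoadenylate synthetase-like gene of chicken. It had 14.6, 14.1 and 13.3 CPM in LPS, 42.2, 44.2 and 40.7 in SeMC+PBS and 59.9, 45.7 and 55.6 in Control. The LPS libraries were far below both other groups, and the SeMC+PBS libraries lay just below the lowest Control library. On the log2 scale LPS/Control was at -1.92 (standard error 0.105, edgeR adjusted p = 1.5e-09). SeMC+PBS/Control was at -0.34 (standard error 0.0924, edgeR adjusted p = 0.0089), under the fold-change minimum, and the edgeR adjusted p was 0.053 without Control replicate 1. OASL overlaps LOC101747452, and since no source gives the strand mode used for counting, reads of the pair cannot be told apart.

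RSAD2 and CMPK2 lie 4500 bases apart on chromosome 3 and encode viperin, which makes an antiviral nucleotide, and a nucleotide kinase that acts in the same route. RSAD2 (chromosome 3, 94677178 to 94685018) had 1.78, 0.517 and 1.88 CPM in LPS, 2.04, 1.63 and 1.56 in SeMC+PBS and 5.51, 4.99 and 6.06 in Control. Both treatments were below every Control library and overlapped each other. RSAD2 was at -1.97 (standard error 0.339, edgeR adjusted p = 2.4e-04) on the log2 scale in LPS/Control and at -1.66 (standard error 0.252, edgeR adjusted p = 1.4e-04) in SeMC+PBS/Control. LPS/SeMC+PBS did not pass the test, with -0.31 (standard error 0.428, edgeR adjusted p = 0.56) and a 95% interval of -1.23 to 0.62. LPS replicate 2 had 7 counts against 23 and 25 in the other LPS libraries, and without it the LPS/SeMC+PBS value was 0.095.

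CMPK2 (chromosome 3, 94666168 to 94672677) was far lower in LPS than in either other group. Its levels were 9.36, 9.01 and 7.98 CPM in LPS, 26.1, 22.9 and 26.8 in SeMC+PBS and 32.02, 29.3 and 30.5 in Control. No group overlapped another. The LPS/Control log2 fold change was -1.79 (standard error 0.106, edgeR adjusted p = 3.9e-09), and the SeMC+PBS/Control value was -0.27 (standard error 0.08895, edgeR adjusted p = 0.023), below the fold-change minimum. For this second value the edgeR adjusted p was 0.093 without SeMC+PBS replicate 2, 0.083 without Control replicate 1 and 0.051 without Control replicate 3, and DESeq2 gave an adjusted p of 0.082. LPS and SeMC+PBS differed in CMPK2, with -1.502 (standard error 0.114, edgeR adjusted p = 1.7e-07).

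LY6E and EPSTI1 were the other effectors called lower in LPS. LY6E, a membrane-anchored protein that acts on viral entry, had 119, 128 and 133 CPM in LPS, 204, 183 and 193 in SeMC+PBS and 252, 194 and 226 in Control. LPS was below both other groups, which overlapped. LY6E was at -0.81 (standard error 0.0785, edgeR adjusted p = 1.2e-06) on the log2 scale in LPS/Control and -0.21 (standard error 0.0783, edgeR adjusted p = 0.045) in SeMC+PBS/Control. The second value did not reach the FDR with 1 library fewer in 4 of 6 fits, where the edgeR adjusted p was 0.13 without SeMC+PBS replicate 2, 0.11 without SeMC+PBS replicate 3, 0.24 without Control replicate 1 and 0.11 without Control replicate 3. EPSTI1, an interferon-induced gene of macrophages, had 20.6, 19.9 and 19.9 CPM in LPS, 25.9, 29.3 and 28.8 in SeMC+PBS and 33.2, 31.9 and 31.9 in Control. The narrow LPS range lay under every other library. This was -0.67 (standard error 0.0823, edgeR adjusted p = 1.3e-05) on the log2 scale in LPS/Control, while the SeMC+PBS/Control value of -0.21 (standard error 0.08305, edgeR adjusted p = 0.059) did not pass the test.

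MX1 encodes a protein that in mammals is a dynamin-like GTPase and traps viral particles. It had 4.100, 3.32 and 6.62 CPM in LPS, 3.57, 3.99 and 3.29 in SeMC+PBS and 6.11, 6.63 and 5.59 in Control. All SeMC+PBS libraries were below Control, but LPS replicate 3 was within the Control range. MX1 was called lower in SeMC+PBS/Control, with -0.75 (standard error 0.199, edgeR adjusted p = 0.0072). In LPS/Control it did not pass the test, with -0.37 (standard error 0.2305, edgeR adjusted p = 0.24), and without LPS replicate 3 it was called, with a log2 fold change of -0.72 and an edgeR adjusted p of 0.032. LPS/SeMC+PBS did not pass the test for MX1, with a 95% interval of -0.19 to 0.98 for the log2 fold change.

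**Figure D2:**
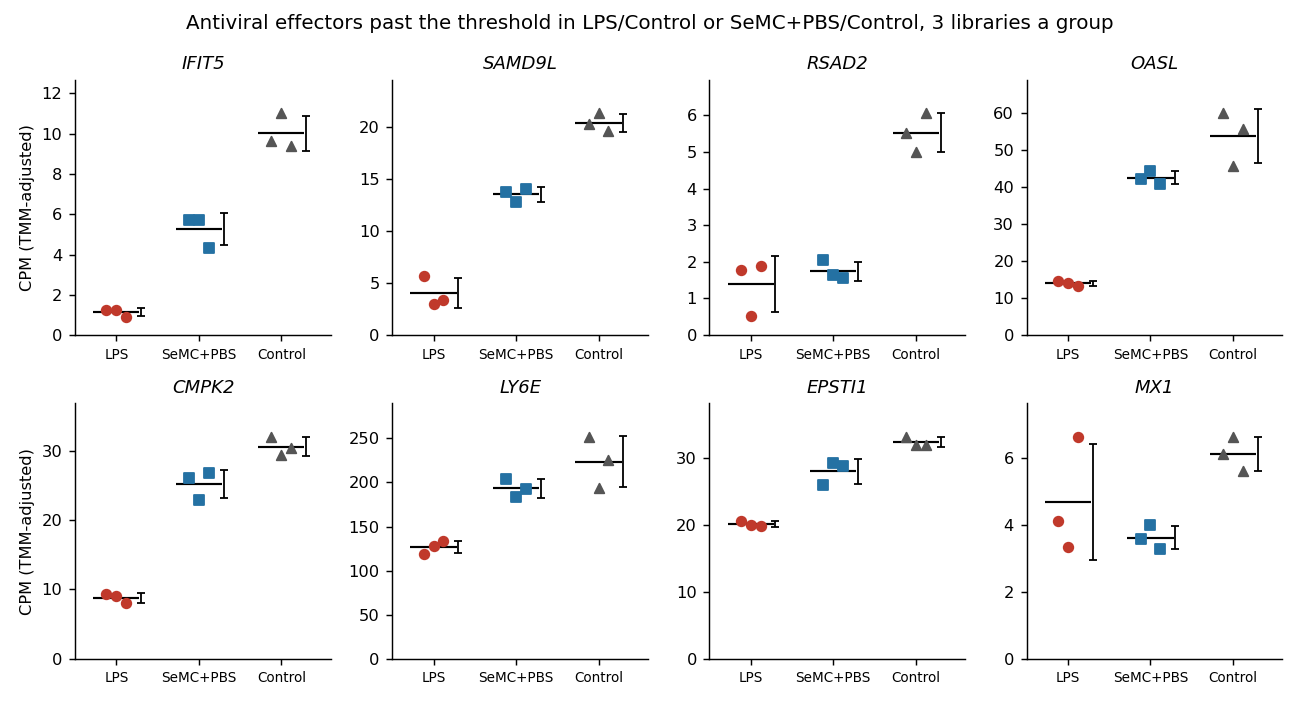
TMM-adjusted CPM (y axis, from 0, a separate scale for each gene) of the 8 effectors called in LPS/Control or SeMC+PBS/Control, in the 3 libraries of LPS, SeMC+PBS and Control (x axis). Points are libraries, lines means and bars the SD. LPS is lowest for OASL, CMPK2, SAMD9L, IFIT5, LY6E and EPSTI1, whereas RSAD2 in SeMC+PBS overlaps LPS and MX1 has 1 LPS library at 6.62 CPM.

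Of the 4 effectors not called in LPS/Control, EIF2AK2 and ADAR reached an FDR under 0.05. EIF2AK2 encodes PKR, a kinase that stops translation on double-stranded RNA. It had 13.2, 10.3 and 13.9 CPM in LPS, 11.3, 14.2 and 12.5 in SeMC+PBS and 17.5, 17.7 and 18.4 in Control. Both treatments were below every Control library, with -0.504 (standard error 0.123, edgeR adjusted p = 0.0049) in LPS/Control and -0.49 (standard error 0.116, edgeR adjusted p = 0.0036) in SeMC+PBS/Control. The first of these passed the fold-change minimum without LPS replicate 3, at -0.60. The 95% interval of LPS/SeMC+PBS was -0.30 to 0.30.

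ADAR, which edits adenosine to inosine in double-stranded RNA and so limits its sensing, was the effector whose level differed from Control in opposite directions. It had 91.3, 89.3 and 90.7 CPM in LPS, 125, 139 and 130.3 in SeMC+PBS and 103, 115 and 109 in Control. The groups formed 3 separate ranges, with SeMC+PBS on top. On the log2 scale these were -0.26 (standard error 0.0595, edgeR adjusted p = 0.0036) in LPS/Control and 0.27 (standard error 0.0623, edgeR adjusted p = 0.0034) in SeMC+PBS/Control, both under 1.5-fold, and -0.52 (standard error 0.0562, edgeR adjusted p = 6.6e-06) in LPS/SeMC+PBS. For SeMC+PBS/Control, limma on quantile-normalized counts gave 0.26 and did not reach the FDR (limma adjusted p = 0.068).

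HELZ2, a helicase-like coactivator, was at 0.11 on the log2 scale in LPS/Control with a 95% interval of -0.031 to 0.25 and did not pass the test in either comparison with Control. IFI6, a small membrane protein gene that interferon induces in mammals, was below the filter. It had 3, 0 and 6 counts in LPS, 11, 10 and 8 in SeMC+PBS and 6, 4 and 7 in Control. The SeMC+PBS counts were higher than those of the other groups in every library, in spite of the lower depth. Tested without the filter, its log2 fold change was 1.22 (standard error 0.643, edgeR adjusted p = 0.14) in SeMC+PBS/Control, so edgeR did not detect a difference at this depth. Limma on quantile-normalized counts called it, at 0.96 (limma adjusted p = 0.035). DESeq2 did not call it (adjusted p = 0.22). Nor did edgeR in any fit with 1 library left out, where the edgeR adjusted p was 0.089 to 0.17. With 1 library left out it entered the LPS/SeMC+PBS test in 4 fits. It was called without LPS replicate 3, at -2.76 (edgeR adjusted p = 0.027), where the LPS counts left are 3 and 0, at or under the floor of 3 counts per library. It was not called without LPS replicate 1, LPS replicate 2 or SeMC+PBS replicate 3, with edgeR adjusted p of 0.089, 0.12 and 0.057 in that order. Without the filter edgeR did not call it in LPS/SeMC+PBS (edgeR adjusted p = 0.086). DESeq2 (adjusted p = 0.11) and limma on quantile-normalized counts (limma adjusted p = 0.12) did not call it there either.

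Of the 10 receptor, Janus kinase and STAT genes, only IFNGR2 was called in LPS/Control, and IFNAR1 and JAK1 reached an FDR under 0.05. Among all genes tested, 12.0% were called and 34.5% reached that FDR. The median log2 fold change of the 10 was 0.09 in LPS/Control and 0.09 in SeMC+PBS/Control, against -0.0015 and 0.0010 over all genes tested. IFNAR1, IFNAR2 and IFNGR2 lie close together on chromosome 1, with 12698 bases between IFNAR1 and IFNGR2 and 21384 between IFNAR1 and IFNAR2.

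IFNGR2 (chromosome 1, 105396793 to 105405282), the signalling chain of the interferon gamma receptor, had 96.5, 94.3 and 101 CPM in LPS, 62.8, 56.2 and 54.6 in SeMC+PBS and 58.1, 53.6 and 51.2 in Control. Every LPS library was above every other library. IFNGR2 was at 0.86 (standard error 0.0672, edgeR adjusted p = 1.1e-07) on the log2 scale in LPS/Control and 0.095 (standard error 0.0779, edgeR adjusted p = 0.35) in SeMC+PBS/Control. IFNGR1, its ligand-binding partner, had 159, 171 and 186 CPM in LPS and 163, 155 and 159 in Control. These ranges overlapped, and the log2 fold change of 0.13 (95% interval -0.00028 to 0.26) did not pass the test. IFNGR1 overlaps LOC121110360 in the annotation.

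IFNAR1 (chromosome 1, 105365332 to 105384094) went the other way from its neighbour IFNGR2 in LPS. It had 16.1, 16.5 and 17.7 CPM in LPS, 28.03, 27.6 and 32.04 in SeMC+PBS and 24.4, 23.02 and 23.4 in Control, with no overlap between any of the groups. On the log2 scale IFNAR1 was at -0.48 (standard error 0.0945, edgeR adjusted p = 0.0010) in LPS/Control and 0.31 (standard error 0.0903, edgeR adjusted p = 0.013) in SeMC+PBS/Control, both under the fold-change minimum. For SeMC+PBS/Control the edgeR adjusted p was 0.084 without SeMC+PBS replicate 3. Between the treatments the gene was called, at -0.78 (standard error 0.0959, edgeR adjusted p = 1.9e-05) in LPS/SeMC+PBS. IFNAR2, the other type I chain, had 86.02, 87.1 and 85.1 CPM in LPS, 100.3, 105 and 90.1 in SeMC+PBS and 83.05, 89.8 and 77.6 in Control. It was higher in SeMC+PBS than in Control, with 0.24 (standard error 0.0728, edgeR adjusted p = 0.017). That FDR was lost in 4 of 6 fits with 1 library left out, where the edgeR adjusted p was 0.058 without SeMC+PBS replicate 1, 0.069 without SeMC+PBS replicate 2, 0.065 without Control replicate 1 and 0.10 without Control replicate 3. IFNAR2 did not pass the test in LPS/Control (0.058, 95% interval -0.085 to 0.20).

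**Figure D3:**
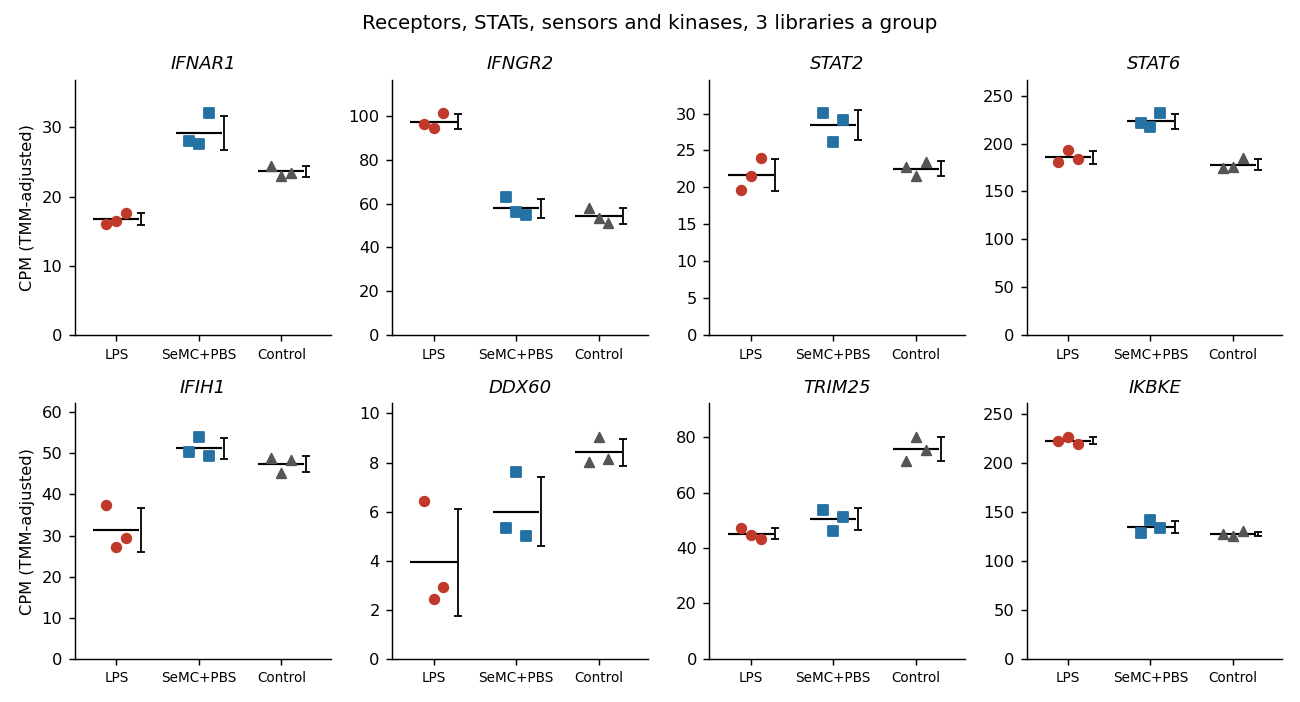
TMM-adjusted CPM (y axis, from 0, a separate scale for each gene) of 8 receptor, STAT, sensor and kinase genes in the 3 libraries of LPS, SeMC+PBS and Control (x axis). Points are libraries, lines means and bars the SD. IFNGR2 and IKBKE are highest in LPS, IFNAR1 and IFIH1 lowest in LPS, STAT2 and STAT6 highest in SeMC+PBS, and TRIM25 is low in both treatments.

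STAT2, the STAT of the type I interferon complex, had 19.6, 21.5 and 23.9 CPM in LPS, 30.1, 26.2 and 29.2 in SeMC+PBS and 22.7, 21.5 and 23.4 in Control. SeMC+PBS was above both other groups, which overlapped. Its log2 fold change was 0.34 (standard error 0.0905, edgeR adjusted p = 0.0081) in SeMC+PBS/Control and -0.043 in LPS/Control, where the 95% interval was -0.25 to 0.17. STAT6, which carries interleukin-4 signals, had 180.3, 193 and 184 CPM in LPS, 222, 217 and 232 in SeMC+PBS and 174, 175 and 185 in Control. The pattern was that of STAT2, with 0.33 (standard error 0.0544, edgeR adjusted p = 3.2e-04) in SeMC+PBS/Control and 0.073 in LPS/Control (95% interval -0.038 to 0.18). STAT2 overlaps IL23A and STAT6 overlaps LRP1 in the annotation, so both counts are uncertain.

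STAT3, the STAT of interleukin-6 and interleukin-10 signals, had log2 fold changes of 0.11 in LPS/Control and 0.077 in SeMC+PBS/Control that did not pass the test. JAK1, which serves both interferon receptors, had 515, 506 and 533 CPM in LPS, 408, 406 and 414 in SeMC+PBS and 468, 462 and 446 in Control. LPS was above and SeMC+PBS below Control in every library. The differences were small, at 0.19 (standard error 0.0482, edgeR adjusted p = 0.0068) in LPS/Control and -0.16 (standard error 0.0519, edgeR adjusted p = 0.022) in SeMC+PBS/Control. In LPS/Control the edgeR adjusted p was 0.057 without LPS replicate 3. In SeMC+PBS/Control it was 0.071 without SeMC+PBS replicate 1, 0.054 without SeMC+PBS replicate 3 and 0.063 without Control replicate 1. With limma on quantile-normalized counts JAK1 was at 0.026 in LPS/Control (limma adjusted p = 0.79). That fit gave -0.16 in SeMC+PBS/Control (limma adjusted p = 0.098). In LPS/Control, JAK2, the kinase of the IFNGR2 chain, was at -0.21 and TYK2, the kinase of IFNAR1, at 0.14 on the log2 scale. Neither passed the test in that comparison or in SeMC+PBS/Control, where JAK2 had an edgeR adjusted p of 0.051, and 0.022 with the replicate block.

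Among the 9 sensor genes, 4 were called in LPS/Control, IKBKE higher and IFIH1, TRIM25 and DDX60 lower. The share of all genes called was 12.0%, with 6.13% higher and 5.92% lower. The median log2 fold change was -0.15 in LPS/Control and -0.06 in SeMC+PBS/Control, against -0.0015 and 0.0010 over all genes tested. IKBKE (chromosome 26, 2511609 to 2521868), a kinase that activates interferon regulatory factors, had 222, 226 and 219 CPM in LPS, 129, 142 and 133 in SeMC+PBS and 127, 125 and 129.9 in Control. LPS stood far above both other groups, which overlapped. IKBKE was at 0.82 (standard error 0.0495, edgeR adjusted p = 6.0e-09) on the log2 scale in LPS/Control and 0.078 in SeMC+PBS/Control (95% interval -0.042 to 0.20). TBK1, the kinase most related to it, had 125, 108 and 109 CPM in LPS and 117, 120.2 and 112 in Control, and its log2 fold change was -0.017 (95% interval -0.16 to 0.13). TBK1 overlaps LOC124417168 in the annotation.

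IFIH1 (chromosome 7, 20667661 to 20694378) encodes MDA5, a sensor of long double-stranded RNA, and is the main such sensor of chickens, which lack RIG-I. It had 37.4, 27.2 and 29.4 CPM in LPS, 50.3, 54.03 and 49.3 in SeMC+PBS and 48.9, 45.2 and 48.3 in Control. All LPS libraries were under Control, and all SeMC+PBS libraries were above it by a small margin. LPS/Control was at -0.59 (standard error 0.102, edgeR adjusted p = 3.7e-04) on the log2 scale, a 1.502-fold difference just past the minimum. Without LPS replicate 2 it was -0.51, without LPS replicate 3 -0.55, without Control replicate 1 -0.57 and without Control replicate 3 -0.58, all under the minimum. In SeMC+PBS/Control the value was 0.11 (standard error 0.0731, edgeR adjusted p = 0.24), which did not pass the test.

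TRIM25 (chromosome 18, 6910681 to 6920394), a ubiquitin ligase that acts on RNA sensors, was low in both treatments. It had 47.3, 44.9 and 43.4 CPM in LPS, 53.9, 46.2 and 51.4 in SeMC+PBS and 71.4, 80.2 and 75.4 in Control. Every treated library was below every Control library, and the treatments overlapped. TRIM25 was at -0.73 (standard error 0.0716, edgeR adjusted p = 1.3e-06) on the log2 scale in LPS/Control and -0.58 (standard error 0.0764, edgeR adjusted p = 5.7e-05) in SeMC+PBS/Control, the second at 1.496-fold and so just under the minimum. It passed the minimum there when SeMC+PBS replicate 1 (-0.63), SeMC+PBS replicate 3 (-0.59), Control replicate 1 (-0.62) or Control replicate 3 (-0.59) was left out, and with limma on quantile-normalized counts (-0.59). TRIM25 overlaps DGKE.

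DDX60, a DExD/H-box helicase that aids RNA sensing in mammals, had 6.42, 2.44 and 2.94 CPM in LPS, 5.35, 7.62 and 5.02 in SeMC+PBS and 8.04, 9.05 and 8.16 in Control. LPS replicate 1 stood above the other LPS libraries, with 83, 33 and 39 counts in the 3 libraries, but was below Control. DDX60 was at -1.09 (standard error 0.2696, edgeR adjusted p = 0.0051) on the log2 scale in LPS/Control, and -1.64 without LPS replicate 1. With limma on quantile-normalized counts it was -1.18 and not called (limma adjusted p = 0.086). It was -0.49 (standard error 0.179, edgeR adjusted p = 0.040) in SeMC+PBS/Control, under the minimum, and was called without SeMC+PBS replicate 2 at -0.69. In the 5 other fits with 1 library left out it did not reach the FDR, with an edgeR adjusted p of 0.13 without SeMC+PBS replicate 1, 0.15 without SeMC+PBS replicate 3, 0.067 without Control replicate 1, 0.10 without Control replicate 2 and 0.068 without Control replicate 3. DESeq2 gave an adjusted p of 0.11 and edgeR on 9 libraries 0.14. In LPS/SeMC+PBS it was -0.59 and did not pass the test, but without LPS replicate 1 it was called at -1.12.

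CGAS, which makes the second messenger cGAMP on meeting DNA in the cytosol, had 111, 115 and 108 CPM in LPS and 122, 129 and 130.2 in Control. The ranges did not overlap, and the log2 fold change was small, at -0.18 (standard error 0.0557, edgeR adjusted p = 0.020). The edgeR adjusted p was 0.051 with the replicate block, 0.075 without LPS replicate 3 and 0.060 without Control replicate 3. ZNFX1, a helicase-like RNA sensor, had a small difference in the other direction, with 266, 262 and 274 CPM in LPS and 250.2, 244 and 243 in Control. ZNFX1 was at 0.13 (standard error 0.0482, edgeR adjusted p = 0.043) on the log2 scale. This did not hold in any of the 6 fits with 1 library left out, where the edgeR adjusted p was 0.10 without LPS replicate 1, 0.083 without LPS replicate 2, 0.20 without LPS replicate 3, 0.055 without Control replicate 1, 0.082 without Control replicate 2 and 0.11 without Control replicate 3, nor with the replicate block (0.11), with 9 libraries in one fit (0.052) or with no filter (0.057). In LPS/Control, limma on quantile-normalized counts gave 0.053 for ZNFX1 (limma adjusted p = 0.53) and -0.23 for CGAS (limma adjusted p = 0.054). Neither gene passed the test in SeMC+PBS/Control. DHX58, which encodes LGP2, a helper of MDA5, and MAVS, the adaptor on mitochondria to which MDA5 signals, did not pass it in either comparison with Control. Their log2 fold changes were -0.15 and 0.13 in LPS/Control. In SeMC+PBS/Control they were 0.24 and -0.057.

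Of the 6 regulator genes, only NMI was called in LPS/Control, against 12.0% of all genes. NMI (chromosome 7, 34714321 to 34724261), a STAT-binding protein, had 168, 147 and 153 CPM in LPS, 96.5, 106 and 95.96 in SeMC+PBS and 101, 98.3 and 98.98 in Control. The LPS libraries were all higher, and the other groups overlapped. NMI was at 0.66 (standard error 0.0607, edgeR adjusted p = 6.0e-07) on the log2 scale in LPS/Control and 0.0053 in SeMC+PBS/Control (95% interval -0.12 to 0.13). Its binding partner IFI35 did not pass the test in LPS/Control, with -0.21 (standard error 0.0793, edgeR adjusted p = 0.054).

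PARP14 and PARP9 belong to a family named for enzymes that attach ADP-ribose to proteins. Both were lower in LPS by less than 1.5-fold. PARP14 had 137, 121 and 132 CPM in LPS, 134, 126 and 133 in SeMC+PBS and 175, 164 and 169.7 in Control. LPS and SeMC+PBS overlapped and both lay below Control. PARP14 was at -0.37 (standard error 0.0583, edgeR adjusted p = 1.6e-04) on the log2 scale in LPS/Control and -0.37 (standard error 0.0551, edgeR adjusted p = 1.5e-04) in SeMC+PBS/Control, and the 95% interval of LPS/SeMC+PBS was -0.11 to 0.13. PARP9 was at -0.36 (standard error 0.0808, edgeR adjusted p = 0.0028) in LPS/Control and did not pass the test in SeMC+PBS/Control. DTX3L, the ubiquitin ligase that pairs with PARP9 and overlaps it in the annotation, and PARP12, a further member of the PARP family, did not pass the test in either comparison with Control.

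LPS and SeMC+PBS were also compared directly, although the agents were given for different times. In LPS/SeMC+PBS, 10 of the 36 genes were called, 3 higher and 7 lower in LPS, against 22.9% of the 12979 genes tested, 10.4% higher and 12.5% lower. An FDR under 0.05 alone was reached by 22 genes, 6 higher and 16 lower, against 54.3% of all genes, 27.1% higher and 27.2% lower. The libraries did not overlap in 23 of the 36 genes, against 61.5% of all genes. The genes called higher were IFNGR2 (0.77), IKBKE (0.75) and NMI (0.67). The genes called lower were IFIT5 (-2.18), SAMD9L (-1.73), OASL (-1.57), CMPK2 (-1.502), IFNAR1 (-0.78), IFIH1 (-0.69) and LY6E (-0.59), all as log2 fold changes. LY6E was at 1.501-fold and fell under the minimum without LPS replicate 1 (-0.54) or SeMC+PBS replicate 1 (-0.55).

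TRIM25, DDX60, EIF2AK2, RSAD2, MX1 and PARP14, which were lower than Control in SeMC+PBS at an FDR under 0.05, did not pass the test between LPS and SeMC+PBS. Among these 6 the 95% interval of the log2 fold change was narrowest for PARP14, at -0.11 to 0.13, and widest for RSAD2, at -1.23 to 0.62. STAT2, STAT6, IFNAR2, ADAR, DHX58, EPSTI1, PARP9, PARP12 and IFI35 were lower in LPS than in SeMC+PBS at an FDR under 0.05 but by less than 1.5-fold. JAK1, MAVS and HELZ2 were higher by less than 1.5-fold. Some of these lost the FDR with 1 library left out. For IFNAR2 the edgeR adjusted p was 0.097 without LPS replicate 1, 0.082 without LPS replicate 2, 0.13 without LPS replicate 3, 0.099 without SeMC+PBS replicate 1 and 0.15 without SeMC+PBS replicate 2. DHX58 had 0.057 without LPS replicate 3 and 0.057 without SeMC+PBS replicate 2, and MAVS had 0.12 without LPS replicate 2 and 0.077 without SeMC+PBS replicate 2, as edgeR adjusted p. PARP9 had an edgeR adjusted p of 0.057 without LPS replicate 1 and PARP12 of 0.067 without LPS replicate 3.

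Other genes of the pathway came from a list of 70 symbols, of which 44 were in the table and 42 were tested. Only the main edgeR test was examined for these genes, without the alternative fits or a replicate left out. In LPS/Control 9 of them were called, 6 higher and 3 lower, against 12.0% of all genes, 6.13% higher and 5.92% lower. In SeMC+PBS/Control 6 were called, all lower, against 14.1%, 8.50% higher and 5.58% lower. In LPS/SeMC+PBS 13 were called, 9 higher and 4 lower, against 22.9%, 10.4% higher and 12.5% lower. At an FDR under 0.05 alone, 11 were higher and 12 lower in LPS/Control, against 18.0% and 16.5% of all genes. In SeMC+PBS/Control 6 were higher and 15 lower, against 20.3% and 19.1%. In LPS/SeMC+PBS 17 were higher and 13 lower, against 27.1% and 27.2%. Over the 42 genes the median log2 fold change was -0.02 in LPS/Control and -0.06 in SeMC+PBS/Control. Over the 20 interferon-stimulated genes of this list it was -0.05 and -0.06 in that order. In LPS/Control, 1 of these 20 was called higher and 1 lower, and 3 were higher and 5 lower at an FDR under 0.05. In SeMC+PBS/Control none was called higher and 3 were called lower, with 5 higher and 6 lower at that FDR. Of the interferon ligand symbols only IFNW1 was listed, with 0, 0 and 1 counts in LPS, 0, 3 and 2 in SeMC+PBS and 3, 2 and 0 in Control. These counts are at or under a floor of 3 counts per library, so no fold is given.

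The list held 7 SOCS, PIAS and PTPN genes, a group made by name after the values were seen. It includes inhibitors of Janus kinase and STAT signalling, but not every member need be one. In LPS/Control 3 were called higher, PTPN2, SOCS3 and SOCS1, where 6.13% of all genes were called higher. PIAS1, which binds STATs, was lower by less than 1.5-fold, with -0.43 (standard error 0.0669, edgeR adjusted p = 1.5e-04), as was PTPN6, a phosphatase of blood cells, with -0.32 (standard error 0.04804, edgeR adjusted p = 9.6e-05). PIAS2 (-0.19) and PTPN11 (-0.11) did not pass the test. PTPN2, a phosphatase that acts on Janus kinases and STATs, had 285, 265 and 273 CPM in LPS, 85.1, 90.5 and 85.5 in SeMC+PBS and 98.4, 103 and 98.7 in Control. LPS was above both other groups in every library, with a log2 fold change of 1.47 (standard error 0.0528, edgeR adjusted p = 1.4e-11) in LPS/Control. SOCS3, an inhibitor of receptor-bound Janus kinases, had 98.2, 102 and 97.2 CPM in LPS and 50.4, 45.98 and 57.7 in Control, with 0.96 (standard error 0.0757, edgeR adjusted p = 1.2e-07). SOCS1, the related inhibitor of interferon receptors, was at 0.73 (standard error 0.1801, edgeR adjusted p = 0.0055) in LPS/Control and at -0.74 (standard error 0.241, edgeR adjusted p = 0.023) in SeMC+PBS/Control, called in opposite directions. In SeMC+PBS/Control SOCS1 was the only one of the 7 called, where 14.1% of all genes were called. PIAS2 (-0.45) and PTPN2 (-0.20) were lower there at an FDR under 0.05 but by less than 1.5-fold. PTPN2 overlaps LOC107052688 and SOCS1 overlaps RMI2.

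JAK3, a Janus kinase of cytokine receptors (1.24), TRAF3, an adaptor of interferon induction (1.05), and NLRC5, an activator of MHC class I genes in mammals (0.86), were the other genes called higher in LPS/Control, by log2 fold change. NLRC5 overlaps CPNE2 in the annotation. TLR3, the endosomal receptor of double-stranded RNA, had 2.48, 0.9597 and 1.66 CPM in LPS, 3.99, 3.26 and 3.55 in SeMC+PBS and 5.65, 7.67 and 5.88 in Control. The groups were apart from each other, with -1.90 (standard error 0.295, edgeR adjusted p = 9.8e-05) in LPS/Control and -0.82 (standard error 0.208, edgeR adjusted p = 0.0056) in SeMC+PBS/Control. IFITM5 was called lower in both, with -1.71 in LPS/Control and -1.01 in SeMC+PBS/Control, on 18, 20 and 15 counts in LPS. It was the only IFITM symbol of the list found in the table, where IFITM1, IFITM2 and IFITM3 were missing. Whether interferon acts on IFITM5 in these cells was not tested. In SeMC+PBS/Control, MOV10, an RNA helicase (-0.68), IRF1, a transcription factor of interferon responses (-0.70), and IFI27L2 (-0.76) were called lower as well, and these 3 were not called in LPS/Control. There MOV10 was lower by less than 1.5-fold, with -0.38 (standard error 0.0805, edgeR adjusted p = 0.0018). IRF1 was higher there by less than 1.5-fold, with 0.25 (standard error 0.0770, edgeR adjusted p = 0.020). IFI27L2 (0.041) did not pass the test, and it overlaps 4 other annotated genes. TICAM1, IRF5 and PARP11 were called only in LPS/SeMC+PBS, at 0.94, -0.79 and -0.67. TICAM1 was at 0.46 in LPS/Control (edgeR adjusted p = 0.0010) and -0.47 in SeMC+PBS/Control (edgeR adjusted p = 0.0082). IRF5 was at -0.54 (edgeR adjusted p = 1.3e-05) and 0.26 (edgeR adjusted p = 0.0077) in that order, and all of these were under 1.5-fold. PARP11 did not pass the test in either comparison with Control.

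**Figure D4:**
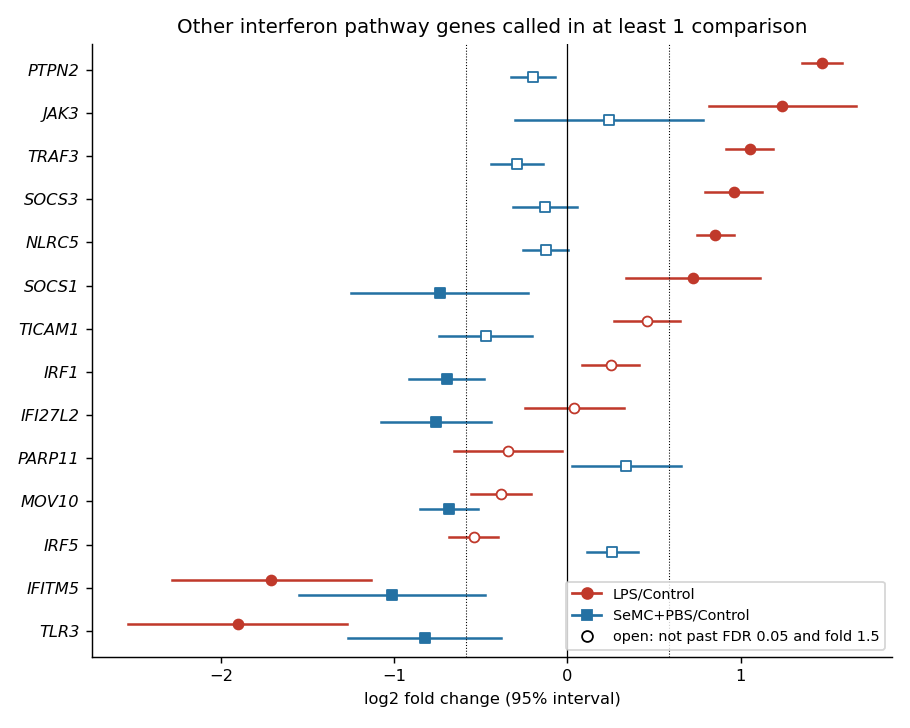
Log2 fold change with its 95% interval (x axis) of 14 listed pathway genes called in at least 1 of the 3 comparisons (rows), in LPS/Control (circles) and SeMC+PBS/Control (squares), with filled symbols for genes past the FDR and fold-change thresholds. PTPN2 is highest in LPS/Control at 1.47, TLR3 is lowest at -1.90, and SOCS1 is called in both comparisons with opposite signs.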

How the data were processed

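Clean reads were aligned by the authors to GRCg7b using HISAT2, and HTSeq gave the count of each gene. The deposited values are raw counts per gene symbol, without normalization. Tool versions, annotation release and strand setting are not given in the sources used here. Groups came from the sample titles. The pathway genes and lists were chosen with earlier results of these data known.

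The main test was that of edgeR 4.0.16 under R 4.3.3 (TMM, filterByExpr with a minimum count of 10, quasi-likelihood test, Benjamini-Hochberg adjustment). Standard errors came from the fitted model. CPM used TMM factors over the 9 libraries. The study names limma without giving its normalization. Alternatives were limma 3.58.1 after quantile normalization of log2 values (pseudocount 1) and in its voom form, DESeq2 1.42.0, RLE size factors, no filter, 9 libraries in one fit, the replicate block, other fold-change minimums and each replicate left out. The procedure was tested on simulated data. Genes described singly were those called, with others where a group required them. Coordinates and overlaps came from the RefSeq annotation of GRCg7b. Of the 37 genes, 9 overlap another annotated gene. Counting error sets the floor of 3 counts. The planned promoter motif search was not run. The counts over the other pathway genes include 1 gene whose values are not reported here.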

Additional observations from a re-analysis of the deposited data

How the results depend on the processing

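The number of genes called stayed within 1.5 times of the 13 in LPS/Control, 4 in SeMC+PBS/Control and 10 in LPS/SeMC+PBS under every alternative but the fold-change minimum. With a minimum of 1.2 it was 14 in SeMC+PBS/Control and 18 in LPS/SeMC+PBS, and with no minimum it was 21, 17 and 22. With 1 replicate left out the numbers were 12 to 14, 3 to 5 and 9 to 11 genes. With the replicate block the numbers were 13, 4 and 10 and the genes called were the same. The replicate numbers showed no clear pairing of the libraries. The same-numbered libraries had correlations of deviations across genes of -0.205 to 0.087. In 7 of the 9 same-numbered pairs, at least 1 library of the pair correlated better with another number. With 3 libraries a group this cannot exclude a pairing. Of the genes that met only the FDR, the block removed CGAS (0.051) and ZNFX1 (0.11) in LPS/Control and added JAK2 (0.022) in SeMC+PBS/Control, by edgeR adjusted p, and it changed no other call. Genes that met only the FDR numbered 8 in LPS/Control, 13 in SeMC+PBS/Control and 12 in LPS/SeMC+PBS. At least 1 fit with a replicate left out lost the FDR for 3, 7 and 5 of them, and at least 1 other fit for 4, 8 and 5. With limma on quantile-normalized counts it was lost for JAK1, ZNFX1, CGAS and EIF2AK2 in LPS/Control. In SeMC+PBS/Control this fit lost it for IFNAR1, IFNAR2, JAK1, DDX60, OASL, CMPK2, ADAR and LY6E. In LPS/SeMC+PBS the genes were IFNAR2, DHX58, MAVS and HELZ2. Limma on quantile-normalized counts did not call DDX60 in LPS/Control (-1.18) and called TRIM25 (-0.59) and IFI6 (0.96) in SeMC+PBS/Control. Over all genes, 41.1% of those it called in SeMC+PBS/Control were higher, against 60.4% with edgeR, and the cause was not tested. Genes whose sign turned did not pass the test in that comparison. With limma on quantile-normalized counts these were STAT6 in LPS/Control (-0.032), DTX3L in SeMC+PBS/Control (-0.0080) and STAT3 (-0.060), ZNFX1 (-0.016), EIF2AK2 (0.019) and PARP14 (-0.059) in LPS/SeMC+PBS. PARP14 was also at -0.011 there with 9 libraries in one fit. With a replicate left out, the log2 fold change was -0.13 to 0.011 for STAT2 and -0.10 to 0.012 for TBK1 in LPS/Control. It was -0.059 to 0.052 for IFNGR1, -0.037 to 0.044 for DTX3L and -0.043 to 0.034 for NMI in SeMC+PBS/Control. In LPS/SeMC+PBS it was -0.087 to 0.088 for JAK2, -0.58 to 0.095 for RSAD2, -0.083 to 0.12 for EIF2AK2 and -0.020 to 0.064 for PARP14. Depth limits RSAD2, with 7 to 25 counts in LPS, IFIT5, with 12 to 17 in LPS, and IFI6, with 0 to 11 counts in all groups. Among the other pathway genes it limits TLR3, with 13 to 32 counts in LPS, and IFITM5, with 15 to 20.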

Other observations

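RefSeq lists STING1 as a synonym of TMEM173 and STAT5B as a synonym of STAT5A. TMEM173 had 9.13, 7.31 and 8.13 CPM in LPS, 8.32, 9.34 and 8.05 in SeMC+PBS and 6.44, 6.03 and 7.57 in Control, and its log2 fold changes of 0.30 in LPS/Control and 0.36 in SeMC+PBS/Control did not pass the test. STAT5A had 226, 237 and 227 CPM in LPS, 209, 196 and 214 in SeMC+PBS and 232, 226 and 237 in Control. It was lower in SeMC+PBS by less than 1.5-fold, with -0.17 (standard error 0.0548, edgeR adjusted p = 0.025), and did not pass the test in LPS/Control. USP41, a ubiquitin-specific protease gene outside both lists, had 122, 131 and 128 CPM in LPS, 191, 188 and 176 in SeMC+PBS and 215, 197 and 205 in Control, and was called lower in LPS/Control, with -0.68 (standard error 0.0544, edgeR adjusted p = 1.2e-07). It was lower by less than 1.5-fold in SeMC+PBS/Control, with -0.15 (standard error 0.0569, edgeR adjusted p = 0.045). The same held in LPS/SeMC+PBS, with -0.52 (standard error 0.0535, edgeR adjusted p = 3.6e-06).

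Genes of antigen presentation on MHC class I, which interferon also induces, were chosen here after their values were seen. TAP1 and TAP2, which together form the peptide transporter, were higher in SeMC+PBS by less than 1.5-fold, with log2 fold changes of 0.45 (standard error 0.0728, edgeR adjusted p = 2.9e-04) and 0.35 (standard error 0.0709, edgeR adjusted p = 0.0014) in SeMC+PBS/Control. B2M, the light chain, had 1549 ± 11.1 CPM in SeMC+PBS and 1594 ± 177 in Control (SD, n = 3 each) and did not pass the test. NLRC5, their transcriptional activator in mammals, was called higher in LPS/Control, while TAP1 (0.12), TAP2 (0.12) and B2M (0.080) did not pass the test there. B2M overlaps TERB2 and NLRC5 overlaps CPNE2 in the annotation.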
